A study of Mus musculus with 64 samples.

Results

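The angiogenic ligands and receptors described here are 10 genes of the vascular growth machinery, namely the ligands Vegfa, Vegfb, Angpt1, Angpt2, and Apln, the receptors Kdr, Flt1, Tek, and Aplnr, and the secreted endothelial product Esm1. They were taken by symbol from the 55401 genes in the count table, as a set of known pathway members and not by a threshold on their values, and all 10 were found once each and passed the filter on low counts. RNA was sequenced from the gastrocnemius muscle of mice with a skeletal muscle-specific knockout of Hif1a (HIF1α KO, named ko in the labels) and of their Hif1a fl/fl littermates (wt in the labels), which had been exercised or left sedentary at 1 of 2 times of day. Mice of both genotypes carried 2 floxed Hif1a alleles on a C57BL/6JBomTac background and were 12 to 18 weeks old. The KO mice also carried an HSA-Cre transgene, which the human α-skeletal actin promoter drives in skeletal muscle fibers. Endothelial, perivascular, and other non-fiber cells of the muscle were not its target, and deletion was not measured by cell type here. Exercised mice (ex) ran on a treadmill for 60 min at up to 16 m/min on an incline of 5%, sedentary mice (sed) had a sham session, and muscle was taken 3 h afterwards. Sessions were at ZT3 or at ZT15, that is 3 h after lights on, in the rest phase, or 3 h after lights off, in the active phase. Values given below as at ZT3 or at ZT15 are named by the session. The muscle itself was taken later than these times. Each of the 8 groups held 8 mice, 4 males and 4 females, except that 7 exercised HIF1α KO mice at ZT3 were used. The library of mouse 44 held 382 counts and was left out. All mice were killed under pentobarbital anesthesia, and no other agent is named for these groups.

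VEGFA is the main growth factor for capillaries in muscle and signals through the receptor tyrosine kinase KDR (VEGFR2), whereas FLT1 (VEGFR1) binds both VEGFA and VEGFB and acts largely as a decoy for VEGFA. ANGPT1 keeps vessels quiescent through the endothelial receptor TEK (TIE2), and ANGPT2, which endothelial cells release on activation, competes with it at the same receptor. Apelin, the product of Apln, acts on the G protein-coupled receptor APLNR during sprouting and arterial maturation, and ESM1 (endocan) is a proteoglycan that marks activated endothelial tip cells. In skeletal muscle, fibers are a major source of VEGFA, which rises after endurance exercise, and both hypoxia-inducible factors and the coactivator PGC-1α (Ppargc1a) can raise Vegfa transcription. HIF1 binds DNA with the core letters ACGTG or GCGTG, and the clock factors BMAL1 and CLOCK bind the related E-box CACGTG.

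On GRCm38 (mm10, GENCODE M21 annotation) the ligand genes lie at chr17:46016993-46032369 (Vegfa, minus strand), chr19:6982473-6987651 (Vegfb, minus strand), chr15:42424723-42676977 (Angpt1, minus strand), chr8:18690263-18741562 (Angpt2, minus strand), and chrX:48025146-48034853 (Apln, minus strand). The receptor genes lie at chr5:75932827-75978458 (Kdr, minus strand), chr5:147561604-147726011 (Flt1, minus strand), chr4:94739289-94874976 (Tek, plus strand), and chr2:85136225-85139923 (Aplnr, plus strand), and Esm1 lies at chr13:113209659-113218098 on the plus strand. Each value is a total per gene, so isoforms of Vegfa or the soluble form of Flt1 were not told apart.

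The promoters of members whose products form the VEGF system are shown because the design removes a factor that reads such letters and compares times of day. RefSeq windows from 250 bases upstream of the gene start (assembly GRCm38.p6, transcribed strand, 5′ to 3′) were at hand for 7 of the 10 genes, and capitals mark a match to ACGTG or GCGTG on either strand. The first window ends just before the start of Vegfa (chr17:46032378-46032627, minus strand), the second at Kdr (chr5:75978456-75978705, minus strand), the third at Flt1 (chr5:147726012-147726261, minus strand), and the last at Vegfb (chr19:6987652-6987901, minus strand).
Vegfa: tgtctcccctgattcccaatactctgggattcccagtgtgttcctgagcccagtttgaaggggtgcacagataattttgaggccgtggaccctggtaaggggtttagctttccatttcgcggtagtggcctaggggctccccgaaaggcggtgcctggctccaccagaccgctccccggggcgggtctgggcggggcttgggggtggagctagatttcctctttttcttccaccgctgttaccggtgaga
Kdr: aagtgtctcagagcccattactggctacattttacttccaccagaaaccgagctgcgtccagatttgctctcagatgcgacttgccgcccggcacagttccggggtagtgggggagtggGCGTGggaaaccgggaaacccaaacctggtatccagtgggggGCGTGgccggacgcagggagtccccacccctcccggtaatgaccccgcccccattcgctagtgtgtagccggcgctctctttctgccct
Flt1: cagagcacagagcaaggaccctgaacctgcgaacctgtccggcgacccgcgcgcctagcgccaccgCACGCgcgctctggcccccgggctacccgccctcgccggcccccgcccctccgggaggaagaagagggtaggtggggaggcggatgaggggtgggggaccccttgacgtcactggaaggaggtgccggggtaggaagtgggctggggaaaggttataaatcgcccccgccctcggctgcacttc
Vegfb: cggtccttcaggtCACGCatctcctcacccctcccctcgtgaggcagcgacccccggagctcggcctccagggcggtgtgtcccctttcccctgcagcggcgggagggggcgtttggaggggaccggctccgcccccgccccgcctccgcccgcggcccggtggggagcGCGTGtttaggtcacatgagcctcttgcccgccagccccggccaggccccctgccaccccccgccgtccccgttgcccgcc
Kdr and Vegfb held 2 matches each and Flt1 held 1, as did Esm1, while the windows at the annotated starts of Vegfa, Apln, and Tek held none. A second RefSeq window of Vegfa, inside the gene (chr17:46025164-46025413), held 2 matches and is not printed. A match occurred in 38.6% of 32851 windows of this length. The E-box CACGTG, which contains ACGTG, occurred in 6.0% of all windows and in 0 windows of these genes. A match is a description of the letters and not a binding site. Letters farther upstream than these 250 bases were not scanned, so a window without a match does not describe the rest of a promoter.

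The authors counted reads per gene, and the counts were scaled here to CPM, that is counts per 1000000 counts of the TMM-adjusted library size. Total counts per library ranged from 2359780 to 40377963 (median 16236352), and 3 libraries held under 5000000. Median raw counts per library ran from 2277 for Vegfa through 819 for Flt1, 638 for Kdr, 622 for Tek, 291 for Angpt1, 245 for Vegfb, 110 for Aplnr, and 48 for Angpt2 to 20 for Apln and 5 for Esm1, so values of the last 2 genes carried the largest counting error. The tissue label matched its markers. The summed level of 8 myofiber genes was between 86329 and 157198 CPM, and that of 11 endothelial genes between 188 and 295 CPM, with no marker of either list at 0 in all libraries. The targeted gene Hif1a was at 25.9 to 57.3 CPM (median 35) in fl/fl and at 28.8 to 49.7 CPM (median 35.9) in KO libraries, and the average log2 fold change was 0.0042 (SE 0.0492, edgeR adjusted p = 0.979). The table counts the whole gene, exons outside the deleted exon 2 included, so this total does not check the genotype labels. The time labels were checked by the clock genes Nr1d1 and Arntl. Nr1d1 was at 14 to 65.8 CPM in ZT3 libraries and at 1.94 to 12.7 CPM in ZT15 libraries, with no overlap, while Arntl was at 8.72 to 44.6 CPM at ZT3 and at 30.7 to 54.5 CPM at ZT15, with overlap. In bulk muscle, fewer cells of a type and less RNA per cell cannot be told apart.

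Per kilobase of exon, Vegfa had the highest level of the 10 genes, with a median of 31.3 CPM per kb and a range of 20.9 to 51.2 over the 63 libraries. The second ligand of the family, Vegfb, followed at a median of 11.1 CPM per kb (4.22 to 23). Among receptors the order was Tek at a median of 7.68 CPM per kb (5.94 to 9.90), Kdr at 4.54 (1.79 to 7.42), Flt1 at 4.06 (1.76 to 7.25), and Aplnr at 1.84 (0.479 to 3.66). Angpt1 was at 3.38 CPM per kb (1.98 to 6.39), and its antagonist Angpt2 was lower, at 0.842 (0.413 to 1.59). Apln at 0.425 CPM per kb (0.0941 to 1.23) and Esm1 at 0.177 (0 to 0.547) closed the order. Vegfa was above Vegfb in 63 of 63 libraries, and Tek was above Kdr in 62. The neighbors Kdr and Flt1, and Flt1 and Angpt1, were less separated, with the first above the second in 46 and 39 libraries. Tek had the narrowest spread, and Esm1, Apln, and Aplnr the widest.

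**Figure D1:**
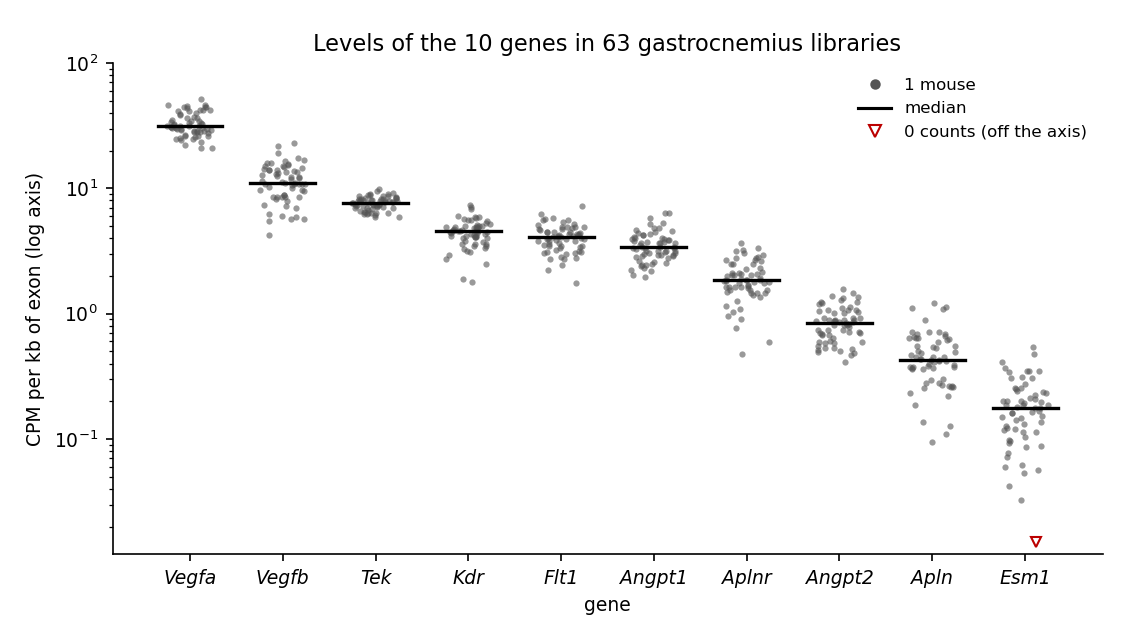
Level of each gene in CPM per kb of exon (log axis) in 63 libraries, with 1 point per mouse and a bar at the median. Medians run from 31.3 for Vegfa to 0.177 for Esm1, and 1 library with 0 counts of Esm1 is drawn off the axis.

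Exercise left none of the 10 genes past the threshold. Averaged over genotypes and times of day, 0 of 10 were called at an adjusted p under 0.1, beside 2.84% of the 15241 genes tested (433 genes). Calls throughout come from the quasi-likelihood test of edgeR, with p-values adjusted by Benjamini-Hochberg over all genes tested, and intervals are 95%. Their median log2 fold change was 0.0536, with 6 of 10 above 0, against −0.0037 over all genes. At an unadjusted p under 0.05, 1 member (Angpt2) and 1661 genes passed, and DESeq2's Wald test also called 0 of 10.

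Vegfa, the ligand best known to respond to endurance exercise, was at 89.5 to 219 CPM (median 132) in the 32 sedentary and at 106 to 197 CPM (median 138) in the 31 exercised mice. The groups overlapped almost throughout. The log2 fold change of Vegfa was 0.10 (SE 0.0588, interval −0.0226 to 0.21, adjusted p = 0.599), which is an interval of −1.55% to 15.9% in level. Vegfb had a log2 fold change of 0.0856 (interval −0.15 to 0.32). The receptors Kdr and Flt1 had 0.10 and 0.11, with intervals of −0.0761 to 0.27 and −0.0553 to 0.27, and Tek had −0.0525 (−0.14 to 0.0384). Angpt2, the antagonist released from activated endothelium, was at 1.72 to 4.78 CPM (median 2.93) in sedentary and 1.53 to 5.86 CPM (median 3.31) in exercised mice. Its log2 fold change was 0.21 (SE 0.106, interval −0.0003 to 0.42), with an unadjusted p of 0.0496 and an adjusted p of 0.458, and fitted by sex it was 0.40 in females and 0.0049 in males (adjusted p = 0.304 and 1.00). The difference between sexes was not tested. Angpt2 lies within Mcph1 on the other strand, and the strand setting of the counting is not given in the sources used here. Mcph1 itself had a log2 fold change of −0.0606 with exercise (adjusted p = 0.808). For the low-count genes Apln and Esm1 the intervals were wide, −0.47 to 0.24 and −0.73 to 0.0543, and for Aplnr the interval was −0.24 to 0.29.

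The same muscles did respond to the run. Ppargc1a, the coactivator that can act on Vegfa, was at 27.6 to 154 CPM (median 54.5) in sedentary and at 70.2 to 208 CPM (median 125) in exercised mice, which is 1.22 on the log2 scale (SE 0.112, adjusted p = 5.05e-12). The 7 lists of further pathway members were chosen with earlier results of these data known. Of their 47 tested genes, 4 rose with exercise and 0 fell, beside 2.06% of all genes called higher and 0.781% called lower. Besides Ppargc1a these were the growth factor Fgf1 (log2 fold change 0.42, adjusted p = 0.00589), the calcineurin feedback regulator Rcan1 (0.43, adjusted p = 0.0236), and the vasoconstrictor Edn1 (0.36, adjusted p = 0.0803). Over the alternatives the highest adjusted p was 0.0246 for Ppargc1a, but 0.378 for Fgf1 and 1.00 for Rcan1 and Edn1, so these last 3 calls were each lost in at least 1 of them. The median log2 fold change of the 47 genes was 0.0497. All 7 slow-fiber markers were above 0 with exercise (median 0.30, 0 called), and 0 of 11 endothelial markers were called (median 0.0362). The members of the VEGF family outside the 10, which were Vegfc, Vegfd, Pgf, Flt4, Nrp1, and Nrp2, gave 0 calls of 6, as did 3 tested genes of the angiopoietin and apelin systems (Tie1, Ptprb, and Angpt4), 10 of Notch and guidance signaling, and 7 inhibitors.

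**Figure D2:**
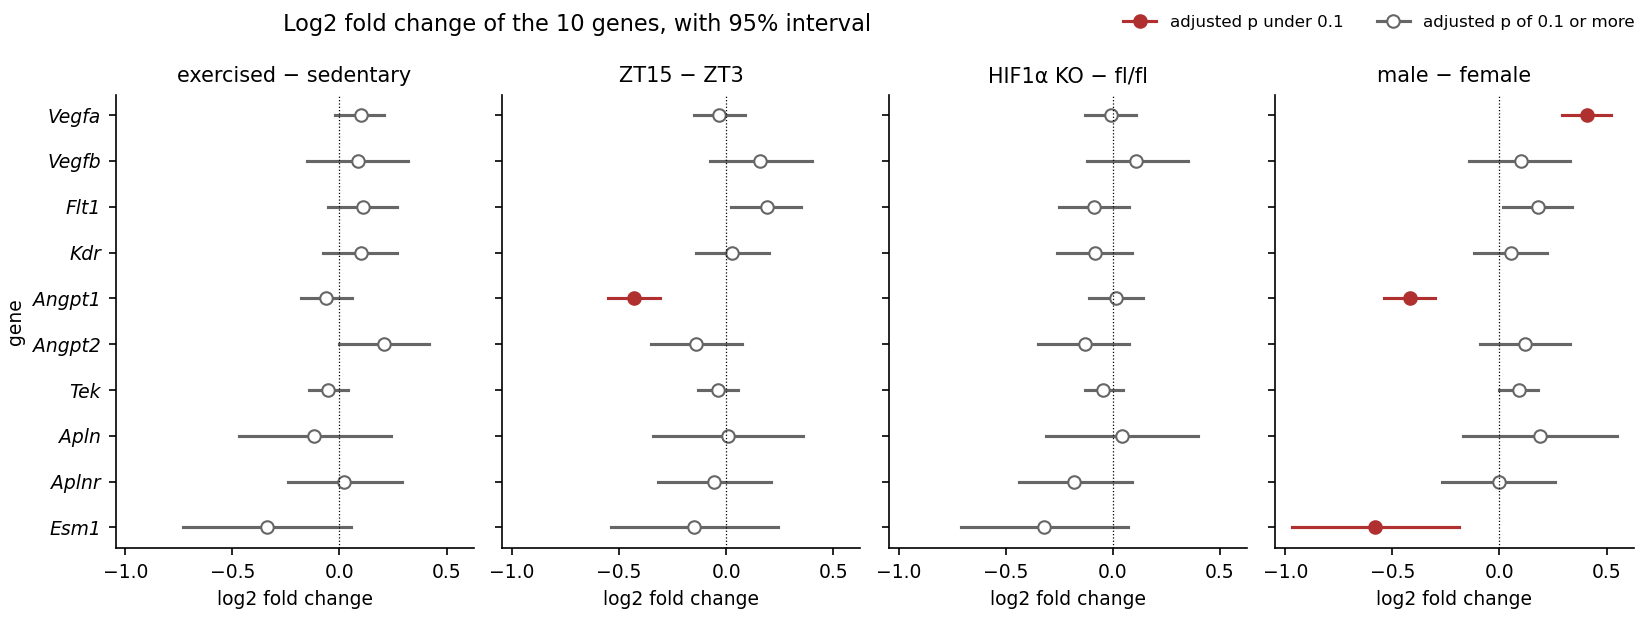
Log2 fold change of each gene with its 95% interval for exercised against sedentary, ZT15 against ZT3, HIF1α KO against fl/fl (each averaged over the other conditions), and male against female. Filled red points passed an adjusted p of 0.1, which only Angpt1 did for time of day and which Vegfa, Angpt1, and Esm1 did between sexes.

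Within single conditions 0 of 10 genes were called for exercise in any of the 4 comparisons, of which the percentages of all genes called were 0.236% in fl/fl mice at ZT3, 0% in fl/fl mice at ZT15 (0 genes, but 1406 at an unadjusted p under 0.05 and 16 called by DESeq2), 0.131% in KO mice at ZT3, and 0.0591% in KO mice at ZT15. Angpt2 came nearest. In fl/fl mice at ZT3 it was at 1.80 to 4.54 CPM (median 3.10) in sedentary and 3.14 to 5.86 CPM (median 3.95) in exercised mice. In KO mice at ZT3 it was at 1.86 to 3.74 CPM (median 2.54) and 1.53 to 5.43 CPM (median 3.39). Both pairs of groups overlapped, and the log2 fold changes were 0.58 (SE 0.207, unadjusted p = 0.00689, adjusted p = 0.255) and 0.49 (SE 0.209, unadjusted p = 0.0214, adjusted p = 0.811). At ZT15 they were −0.0033 in fl/fl and −0.22 in KO mice. For Vegfa the log2 fold change was 0.16 at ZT3 and −0.0442 at ZT15 in fl/fl mice, and 0.12 and 0.14 in KO mice. Its receptor Flt1 had 0.33 and −0.22 in fl/fl mice and 0.0636 and 0.26 in KO mice, and Vegfb had 0.48 and −0.42 in fl/fl mice and −0.0199 and 0.30 in KO mice, none past the threshold.

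**Figure D3:**
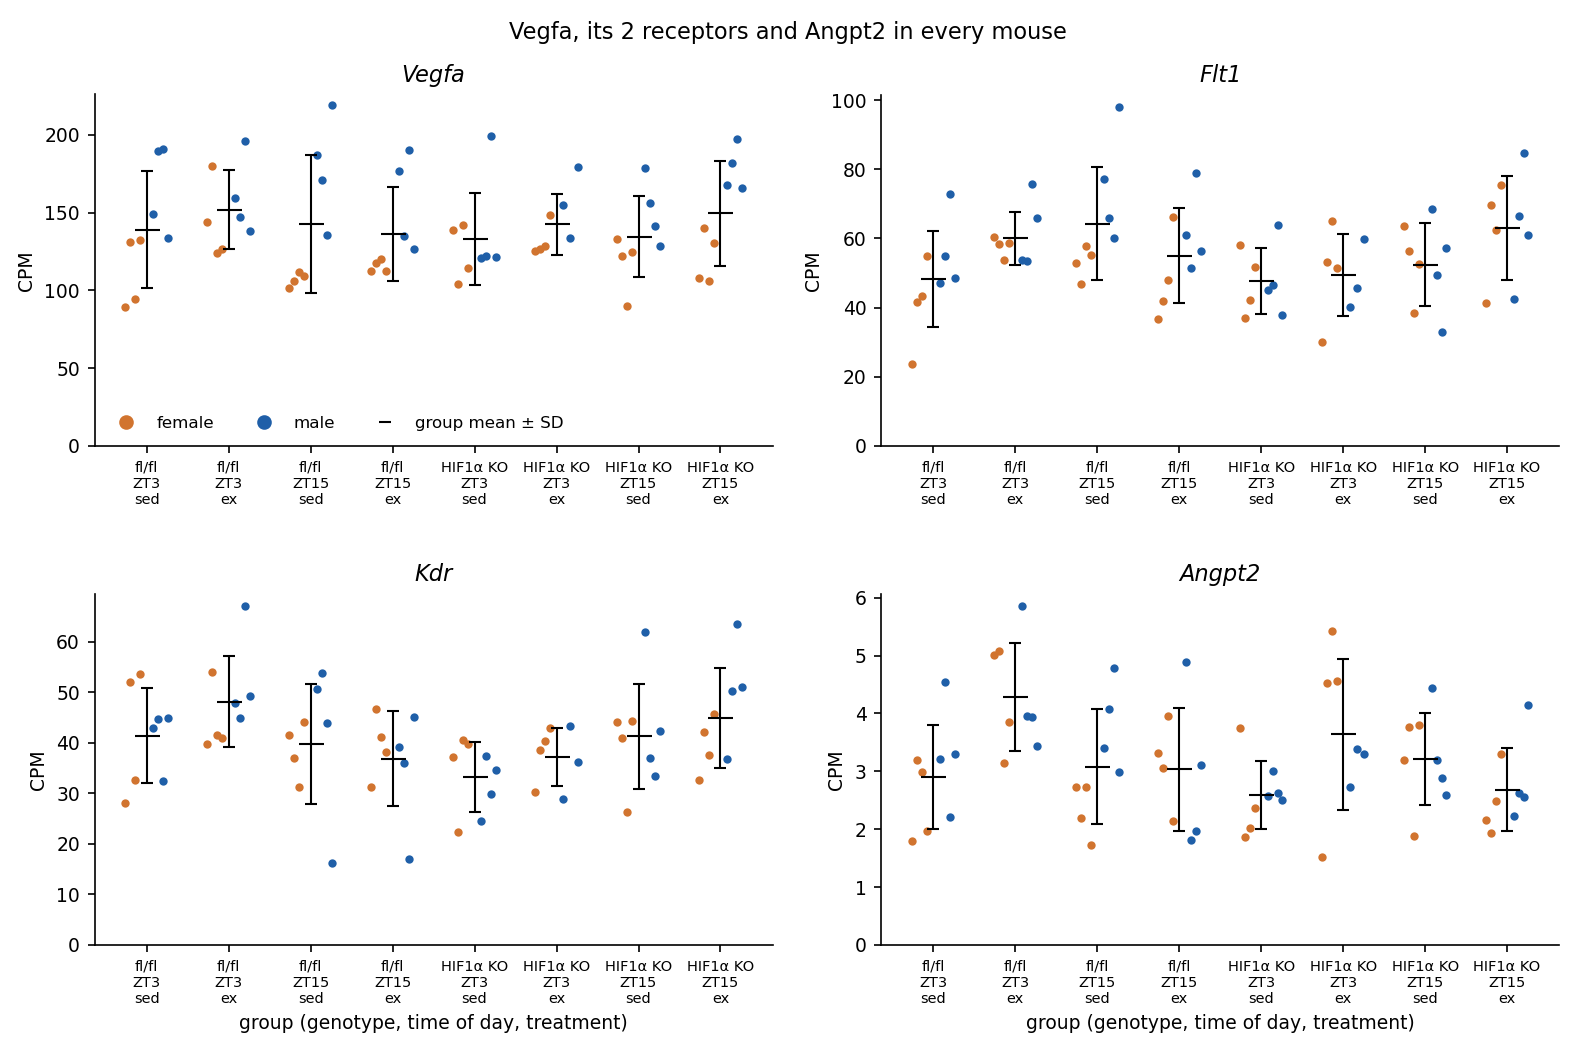
Vegfa, Flt1, Kdr, and Angpt2 in CPM in every mouse of the 8 groups, females in orange and males in blue, with group means ± SD. Values of exercised and sedentary mice overlap in every pair of groups, and 1 male in each of 2 fl/fl groups at ZT15 has a low Kdr (16.1 and 17.1 CPM).

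Time of day separated 1 of the 10 genes. Angpt1, the ligand that stabilizes vessels through TEK, was lower at ZT15 than at ZT3, beside 8.02% of all genes called in this average (1222 genes, 624 higher and 598 lower at ZT15). It was at 12.7 to 33.2 CPM (median 20.5) in 31 mice at ZT3 and at 10.3 to 22.7 CPM (median 15.7) in 32 mice at ZT15. The ranges overlapped in their lower part. The log2 fold change was −0.43 (SE 0.0613, interval −0.55 to −0.31, adjusted p = 5.49e-07), so the level fell by 25.7%.

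All 4 single comparisons of Angpt1 had the same sign, and 3 passed. In sedentary fl/fl mice Angpt1 was at 13 to 33.2 CPM (median 20.2) at ZT3 and at 10.3 to 19.3 CPM (median 16.3) at ZT15, so that 8 of 8 mice at ZT15 lay below the ZT3 median. The log2 fold change was −0.47 (adjusted p = 0.0451, with 1.88% of all genes called). In exercised fl/fl mice it was at 16.0 to 27.1 CPM (median 20.9) at ZT3 and at 10.6 to 22.7 CPM (median 15.8) at ZT15, with 7 of 8 below the ZT3 median and a log2 fold change of −0.44 (adjusted p = 0.0790, 1.18% called). In sedentary KO mice it was at 12.7 to 32.9 CPM (median 20.6) and at 11.4 to 21 CPM (median 17.6), and the log2 fold change of −0.32 did not pass (adjusted p = 0.495, 0.479% called). In exercised KO mice it was at 15.4 to 29.9 CPM (median 22.3) and at 12.0 to 17.3 CPM (median 14.8), with 6 of 8 mice at ZT15 below every mouse at ZT3. Here the log2 fold change was −0.49 (adjusted p = 0.0553, 0.663% called). Without the 3 libraries under 5000000 counts, the call in exercised fl/fl mice was lost (−0.42, adjusted p = 0.136). Over the alternatives the highest adjusted p was 0.178 in sedentary fl/fl, 0.306 in exercised fl/fl, and 0.168 in exercised KO mice. Each of the 3 calls was thus lost in at least 1 alternative.

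The lower Angpt1 at ZT15 was seen in both sexes. Females were at 19.5 to 33.2 CPM (median 24) at ZT3 and 13.6 to 22.7 CPM (median 17.3) at ZT15, and males at 12.7 to 21.4 CPM (median 17.8) and 10.3 to 21 CPM (median 13.4). Fitted alone, females gave a log2 fold change of −0.52 (adjusted p = 2.94e-05) and males one of −0.34 (adjusted p = 0.0815). Within the 4 blocks of 16 consecutive mouse numbers, the difference in log2 CPM was −0.58, −0.37, −0.39, and −0.38 (7 or 8 mice at each time). All 7 slow-fiber markers, such as Myh7 and Tnni1, had a log2 fold change below 0 at ZT15 (median −0.11, 0 of 7 called). Their summed level had a lower median at ZT15 than at ZT3 in fl/fl mice, both sedentary (958 and 1224 CPM) and exercised (1028 and 1192 CPM). In KO mice the median was higher at ZT15, both sedentary (895 and 785 CPM) and exercised (1211 and 941 CPM). The ranges overlapped, as in sedentary fl/fl mice, with 354 to 1745 CPM at ZT15 and 410.1 to 1773 CPM at ZT3. Adding the slow-fiber score to the model gave −0.41 for Angpt1 (adjusted p = 3.50e-07), and adding the endothelial score gave −0.42 (adjusted p = 1.62e-07). An antisense gene over the start of Angpt1, Gm17473, was counted at a median of 6 reads and had a log2 fold change of −0.41 (adjusted p = 0.287), and reads of the pair cannot be told apart if strand was not used.

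**Figure D4:**
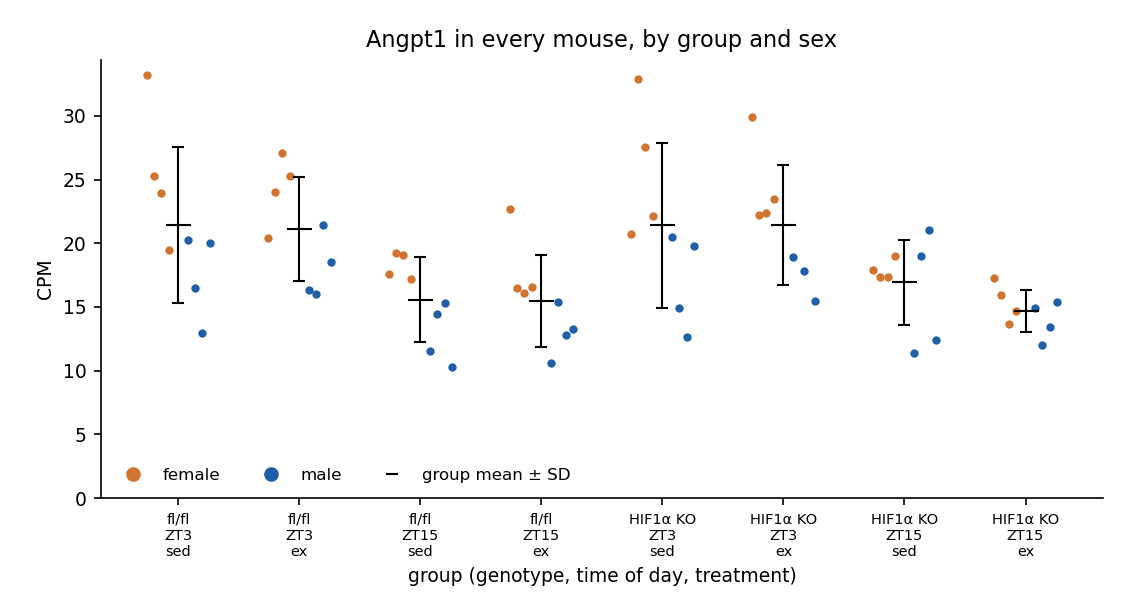
Angpt1 in CPM in every mouse of the 8 groups, females in orange and males in blue, with group means ± SD. In each pair of groups the mean at ZT15 is below that at ZT3, and in all 8 groups the median of the males is below that of the females.

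The genes most like Angpt1 over the 63 libraries, by Pearson's r of log2 CPM, were the calsequestrin Casq2 (r = 0.76, Spearman's rho = 0.73), the phosphatase Inpp4b (r = 0.76, rho = 0.74), and the cytosolic isocitrate dehydrogenase Idh1 (r = 0.74, rho = 0.71). They were picked as the highest of all genes, so no p is given. With group and sex means removed, r was 0.61, 0.49, and 0.55. Their log2 fold changes at ZT15 were −0.41 for Casq2, −0.88 for Inpp4b, and −0.32 for Idh1. In males against females they were −0.90 for Casq2, −0.35 for Inpp4b, and −0.41 for Idh1. Both sets are given as a description, because the differences of Angpt1 between times and between sexes entered the r that picked these genes.

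The other 9 genes did not pass for time of day. The receptor Flt1 came nearest, at 23.7 to 75.9 CPM (median 53.3) at ZT3 and 32.8 to 97.9 CPM (median 57.5) at ZT15, with a log2 fold change of 0.19 (SE 0.0811, unadjusted p = 0.0254, adjusted p = 0.201). With the blocks of mouse numbers as a covariate the estimate was also 0.19 and passed (adjusted p = 0.0380), as it did with the endothelial score (0.20, adjusted p = 0.0809). Within the blocks the difference was 0.32, 0.19, 0.16, and 0.0659. Vegfa was at a median of 134 CPM at ZT3 and 132 CPM at ZT15 (log2 fold change −0.0312, interval −0.15 to 0.0867), and Tek, the receptor of Angpt1, had a log2 fold change of −0.0369 (interval −0.13 to 0.0541). Angpt2 had −0.14 (interval −0.35 to 0.0744) and Kdr 0.0293 (−0.14 to 0.20). In single comparisons none of the 9 passed.

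Of the 47 further pathway genes, from lists chosen with earlier results of these data known, 3 rose and 3 fell at ZT15. Of all genes tested, 4.09% were called higher and 3.92% lower. Edn1 was at 0.668 to 5.49 CPM (median 1.79) at ZT3 and at 1.17 to 3.80 CPM (median 2.99) at ZT15, which is 0.59 on the log2 scale (adjusted p = 0.000164). The phosphatase Dusp5 (0.63, adjusted p = 0.0517) and the receptor Notch1 (0.25, adjusted p = 0.0681) were also higher at ZT15. The VEGF co-receptor Nrp1 (−0.16, adjusted p = 0.0121), the antiangiogenic matrix protein Thbs2 (−0.49, adjusted p = 0.0148), and the secreted lipase inhibitor Angptl4 (−0.83, adjusted p = 0.0235) were lower. Each of the 6 calls was lost in at least 1 fit within a single sex, and over the alternatives the highest adjusted p was 0.288 for Edn1, 0.339 for Dusp5, 0.611 for Notch1, 0.306 for Nrp1, 0.520 for Thbs2, and 0.398 for Angptl4. Their estimates kept their sign throughout. Of the 11 endothelial markers 0 were called, with a median log2 fold change of 0.0046, and of 8 pericyte and smooth muscle markers only Kcnj8 was (−0.32, adjusted p = 0.00918).

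Genotype left none of the 10 genes past the threshold, beside 8.26% of all genes called on average over times and treatments (1259 genes). DESeq2's Wald test also called 0 of 10, and at an unadjusted p under 0.05 there was no member among the 3105 genes. Vegfa, a textbook HIF target, was at 89.5 to 219 CPM (median 134) in 32 fl/fl mice and at 89.7 to 199 CPM (median 133) in 31 KO mice. The log2 fold change was −0.00981 (SE 0.0588, interval −0.13 to 0.11), which is an interval of −8.47% to 7.78% in level. Angpt1 had 0.0167 (interval −0.11 to 0.14), Tek −0.0436 (−0.13 to 0.0474), Kdr −0.0833 (−0.26 to 0.0897), and Flt1 −0.0856 (−0.25 to 0.0773). Vegfb had 0.11 (−0.12 to 0.35) and Angpt2 −0.13 (−0.35 to 0.0774). The widest intervals of the 10 were −0.44 to 0.0894 for Aplnr, −0.31 to 0.40 for Apln, and −0.71 to 0.0700 for Esm1.

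Single comparisons of genotype called 0 of 10 genes as well, beside 0.400% of all genes in sedentary mice at ZT3, 1.43% in exercised mice at ZT3, 0.0459% in sedentary mice at ZT15, and 0.400% in exercised mice at ZT15. The largest member difference by unadjusted p was that of Vegfb in exercised mice at ZT15, at 11.1 to 20.2 CPM (median 14.9) in fl/fl and 9.61 to 34.7 CPM (median 23.7) in KO mice. Its log2 fold change was 0.57 (SE 0.235, unadjusted p = 0.0184, adjusted p = 0.540). Averaged over times and treatments, 1 of the 47 pathway genes was called, beside 8.26% of all genes. This was the lymphangiogenic ligand Vegfd, at 1.11 to 4.72 CPM (median 2.70) in fl/fl and 1.23 to 3.51 CPM (median 1.87) in KO mice. Its log2 fold change was −0.41 (adjusted p = 0.00511). In females alone Vegfd had −0.43 and was not called (adjusted p = 0.193). In the same average over all mice, 2 of 8 pericyte and smooth muscle markers (median −0.0404, 2 above 0) were called. These were Myh11 and Acta2, both lower in KO mice (−0.26 and −0.18, adjusted p = 0.0838 and 0.0889). Of 4 fibroblast markers (median −0.25), 1 was called, Pdgfra, also lower in KO mice (−0.12, adjusted p = 0.0731). Endothelial markers gave 0 calls of 11 with a median of 0.0679, and their summed level was at 188 to 286 CPM in fl/fl mice and at 189 to 295 CPM in KO mice. Whether the perivascular and fibroblast markers bear on Vegfd was not tested.

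No interaction was called for any of the 10 genes. The share of all genes called was 0% for exercise by time, 0% for exercise by genotype, 0% for time by genotype, and 0% for the 3-way term, although 648, 306, 648, and 2196 genes had an unadjusted p under 0.05, and DESeq2's Wald test called 1 gene in the 3-way term. Estimates of the 10 genes are therefore given as values. The change of Angpt2 with exercise was lower at ZT15 than at ZT3 by a log2 difference of −0.65 (SE 0.211, interval −1.07 to −0.23, unadjusted p = 0.00304, adjusted p = 0.900). For Kdr the change with time of day differed between genotypes by 0.51 (SE 0.173, unadjusted p = 0.00482, adjusted p = 0.981). A sedentary fl/fl male at ZT15 was low in Kdr (16.1 CPM), as was an exercised one (17.1 CPM). Their bearing on this estimate was not tested. In the 3-way term Vegfb had 1.22 (SE 0.474, unadjusted p = 0.0126, adjusted p = 0.284) and Flt1 had 0.74 (SE 0.324, unadjusted p = 0.0251, adjusted p = 0.297). For Angpt1 the difference of the time effect between genotypes was 0.0443 (interval −0.20 to 0.29). For Vegfa the difference of the exercise effect between genotypes was 0.0777 (interval −0.16 to 0.31).

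Sex, which the design balanced over the groups, went with 3 of the 10 genes, beside 25.1% of all genes called between males and females (3821 genes). Vegfa was at 121 to 219 CPM (median 159) in 31 males and at 89.5 to 180.2 CPM (median 123) in 32 females, which is 0.41 on the log2 scale (SE 0.059, adjusted p = 1.46e-07). Angpt1 went the other way, at 10.3 to 21.4 CPM (median 15.4) in males and 13.6 to 33.2 CPM (median 19.9) in females, with −0.42 (SE 0.0615, adjusted p = 1.60e-07). Within the blocks of mouse numbers the difference in log2 CPM was 0.44, 0.43, 0.31, and 0.39 for Vegfa and −0.60, −0.35, −0.56, and −0.22 for Angpt1. Esm1 was at 0.0689 to 0.726 CPM (median 0.299) in males and 0 to 1.15 CPM (median 0.429) in females, with −0.58 (SE 0.194, adjusted p = 0.0242), and the median count of this gene was 5. Among further VEGF ligands Pgf was higher in males (0.63, adjusted p = 0.000175). All 7 slow-fiber markers and all 5 adipose markers were called lower in males, with medians of −0.88 and −0.77, and 4 of 11 endothelial markers were called higher. The summed slow-fiber level was at 346 to 1773 CPM (median 784) in males and 624 to 3833 CPM (median 1349.9) in females. With the slow-fiber score as a covariate Vegfa had 0.35 (adjusted p = 0.000659) and Angpt1 −0.28 (adjusted p = 0.00535), both still past the threshold, while Esm1 no longer was (−0.48, adjusted p = 0.226).

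From mouse to mouse, several of the genes varied together. After group and sex means were removed from log2 CPM, Pearson's r, Spearman's rho, and two-sided permutation tests of 100000 shuffles were computed for the 45 pairs, and 15 pairs passed an adjusted p of 0.05 in both, 10 positive and 5 negative. Vegfb and Flt1, a ligand and its receptor, varied most closely (r = 0.79, rho = 0.83, p = 1.00e-05, the smallest these shuffles can give, adjusted p = 7.50e-05). Without the 2 mice farthest from the median r was 0.79, and with the blocks of mouse numbers removed as well it was 0.61. Vegfa was tied to both, with r of 0.61 to Flt1 and 0.60 to Vegfb (0.54 and 0.49 with blocks removed). The receptors Kdr and Aplnr also varied together (r = 0.66, rho = 0.61, 0.69 with blocks removed). So did Tek and Aplnr (0.49 and 0.35, 0.56 with blocks removed), and Apln and Aplnr (0.41 and 0.43, 0.43 with blocks removed). Without the 2 mice farthest from the median of the first gene, r was 0.55, 0.41, and 0.42 for these pairs in turn. Angpt1 ran against Flt1 (r = −0.67, rho = −0.61) and Vegfb (−0.54 and −0.56), with r of −0.52 and −0.28 when blocks were removed. Tek also ran against Flt1 (r = −0.51, rho = −0.55) and Vegfb (−0.46 and −0.56), with r of −0.32 and −0.25 when blocks were removed. The remaining negative pair was Vegfa and Angpt1 (−0.36 and −0.34, −0.15 with blocks removed). All pairs share libraries and so sampling and composition effects, and the correlation of each gene with log10 depth was between −0.14 and 0.18.

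**Figure D5:**
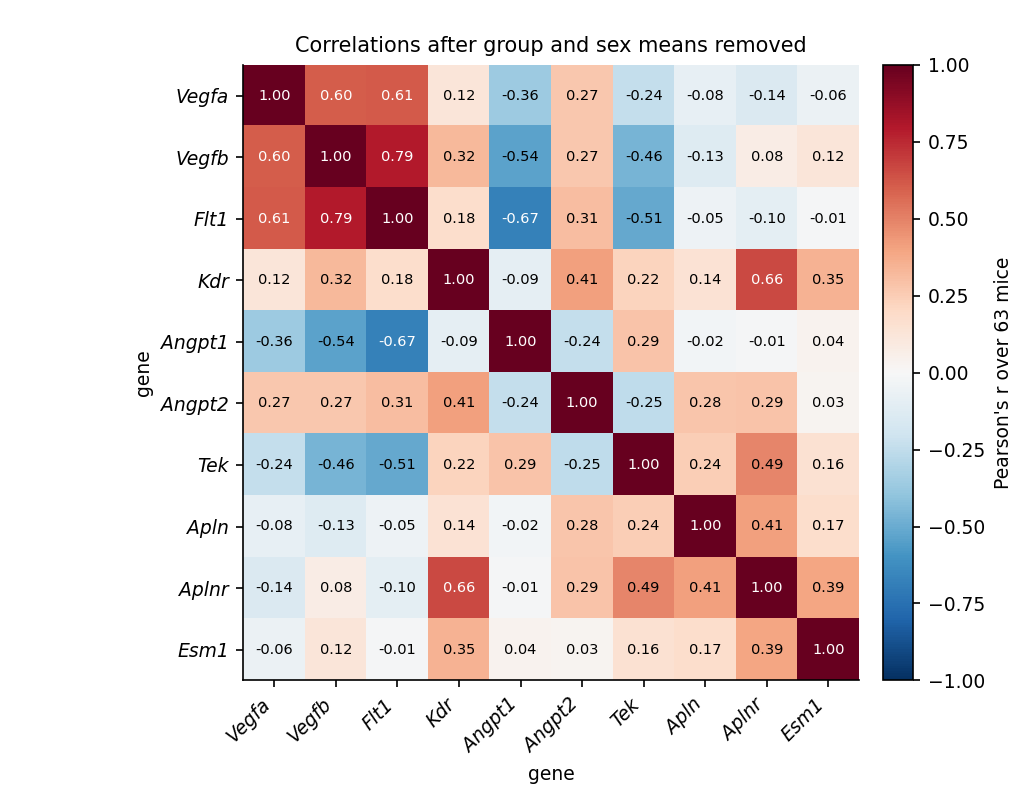
Pearson's r between the 10 genes over 63 mice, from log2 CPM after group and sex means were removed (red positive, blue negative). Vegfa, Vegfb, and Flt1 form 1 block (0.60 to 0.79), Kdr and Aplnr another pair (0.66), and Angpt1 is negative to Flt1 (−0.67).

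The same residuals were set against marker scores, each the mean of centered log2 CPM over a marker list that holds none of the 10 genes, with permutation p-values adjusted over 30 relations. The endothelial score ran with Flt1 (r = 0.52, rho = 0.48, adjusted p = 0.0001 for r, 0.33 with blocks removed) and Angpt2 (r = 0.48, rho = 0.43, adjusted p = 0.000471, 0.41 with blocks removed), and also with Vegfb, Vegfa, Kdr, Apln, and Aplnr (r between 0.36 and 0.48, rho between 0.34 and 0.43). With blocks removed, r for Vegfb fell to 0.28, and for the other 4 it was between 0.30 and 0.49. Angpt1 was negative to this score (r = −0.34, rho = −0.30, adjusted p = 0.0139, −0.18 with blocks removed). For Tek, itself an endothelial gene, r was −0.0352 (rho −0.0391, adjusted p = 0.849), and for Esm1 it was 0.13 (rho 0.19, adjusted p = 0.407). Angpt1 ran with the slow-fiber score (r = 0.44, rho = 0.43, adjusted p = 0.00123, 0.35 without the 2 farthest mice and 0.44 with blocks removed). Against the pericyte and smooth muscle score, Kdr had r = 0.55 and Aplnr r = 0.52 (rho 0.55 each, adjusted p = 0.0001), and with blocks removed r was 0.52 and 0.55. Flt1 (r = 0.51, rho = 0.44, adjusted p = 0.000225) and Vegfb (r = 0.45, rho = 0.43, adjusted p = 0.000712) fell to r of 0.27 and 0.20 with blocks removed. Angpt2 had r = 0.48 (rho = 0.44, adjusted p = 0.000471, 0.41 with blocks removed) and Apln r = 0.30 (rho = 0.31, adjusted p = 0.0301, 0.44 with blocks removed). Angpt1 was negative to this score too (r = −0.42, rho = −0.36, adjusted p = 0.00196, −0.27 with blocks removed).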

How the data were processed

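The authors sequenced stranded poly-A libraries in paired ends, used STAR for alignment to mm10, and obtained gene counts from featureCounts. Versions, annotation release, and strand setting are not given in the sources used here. The deposited values are raw counts. Here, gene IDs were matched to GENCODE M21 (55141 of 55401), 63 libraries were scaled by TMM, and 15241 genes kept by filterByExpr (minimum count 10) were fitted with edgeR 4.0.16 (R 4.3.3, robust quasi-likelihood, group plus sex). Calls used an adjusted p under 0.1. Standard errors are the log2 fold change over the root of F, and 95% intervals used 54 residual degrees of freedom. Log2 CPM had a prior count of 2. The genes and lists were chosen with earlier results of these data known. Named genes are the 10, list genes called in an averaged comparison (at most 4 per list), and the 3 genes most like a called member. The 15 alternatives changed the test (DESeq2 1.42.0), scaling, filter, threshold, model terms, or libraries, fits within each sex included. Mouse 44 was left out as in the study. Each library is 1 mouse. A level of 1 CPM stood for 2.55 counts in the shallowest library and 44.9 in the deepest.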

Additional observations from a re-analysis of the deposited data

Results flagged for a closer look

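Of 80 sets of values (10 genes in 8 groups), 4 had a mouse far from the others by Dixon's test of the gap over the range. Chance gives about 1 such set in 20. Mouse 37, an exercised fl/fl male at ZT15, was low in both Kdr (17.1 CPM from 261 counts, the others 31.3 to 46.8 CPM) and Aplnr (1.77 CPM from 27 counts, the others 5.39 to 13.6 CPM). Mouse 8, a sedentary fl/fl male at ZT15, was low in Kdr (16.1 CPM from 135 counts, the others 31.2 to 53.7 CPM). Mouse 18, a sedentary fl/fl mouse at ZT3, was high in Tek (42.5 CPM from 726 counts, the others 36 to 38.5 CPM). No explanation of these values was tested.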

How the results depend on the processing

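No paired analysis was possible because the mouse numbers in the labels are unique and no group shares one with another. Across the 15 alternatives, the count of the 10 genes called stayed at 0 for exercise, genotype, and every interaction, in each setting that gave such a count. Between sexes it was 3, but 2 (Vegfa and Angpt1) with the slow-fiber score or with 10 counts required in every library, which left Esm1 untested, and 4 (Flt1 added) with the blocks. Averaged over the other conditions, time of day called 2 genes (Angpt1 and Flt1) with the blocks of mouse numbers as a covariate and 2 (Angpt1 and Flt1) with the endothelial score. The 4 single comparisons of time of day gave 3 calls, 0 without the sex term, 5 with the blocks (Angpt1, Flt1, and Vegfb), and 1 at an adjusted p under 0.05. The cause of these moves was not tested.

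Estimates that changed sign all belonged to results that had not passed. With the endothelial score, exercise gave −0.0396 for Aplnr, genotype 0.0001 for Vegfa, and sex −0.0671 for Vegfb, −0.0544 for Kdr, −0.0293 for Angpt2, and −0.0725 for Apln. With the slow-fiber score, Aplnr gave −0.0406 for exercise and 0.19 for sex. With the blocks, genotype gave 0.0228 for Vegfa and −0.0198 for Angpt1. In females alone, Aplnr gave −0.0176 for exercise, time of day gave −0.0197 for Kdr, −0.0053 for Apln, and 0.0368 for Esm1, and genotype gave 0.0599 for Vegfa, 0.0905 for Flt1, −0.0560 for Angpt1, and −0.20 for Apln. In males alone, Vegfa gave 0.0938 for time of day, and genotype gave −0.0715 for Vegfb, 0.0464 for Tek, and 0.0407 for Aplnr.

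Counts over all genes moved by more than 1.5 times in 57 of 237 combinations of comparison and setting. Averaged exercise went from 433 genes to 669 with the blocks and 17 in males alone, time of day from 1222 to 2030 with the blocks, 307 in males, and 462 in females, genotype from 1259 to 778 without the filter, 2261 in males, and 113 in females, and sex from 3821 to 2356 with the slow-fiber score. At the depth of these libraries the intervals of Apln and Esm1 stayed wide.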
